A study of Mus musculus with 12 samples.

Results

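The measurement described here is how much the 36 h change in RNA levels of migrating mammary epithelial cells differed between cells with Snail1 knocked down and control cells. It is the 36 h minus 0 h change in the knockdown minus the 36 h minus 0 h change in control, gene by gene. All 12 libraries of the series enter it, and it was also computed from the 11 that remain without knockdown 0 h library 2. RNA came from HC11, an established mouse mammary epithelial cell line, sequenced with a stranded mRNA kit. Per the labels, cells were sorted, left overnight to form aggregates in medium with serum, EGF and insulin, and put through an in vitro migration assay. The 4 groups of 3 libraries were control ("scr" in the titles, genotype given as WT) at 0 h, control at 36 h, Snail1 knockdown at 0 h and Snail1 knockdown at 36 h. The labels do not name the knockdown construct or say how many sequences or clones were used, and they do not tie the libraries of a group to separate cultures. The p-values then measure only the spread between these libraries. The study asks what Snail1 does in collective migration, and this difference asks which of the changes over 36 h depend on it.

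Snail1, the protein of the gene Snai1, is a zinc-finger transcriptional repressor that binds the E-box CAGGTG and is best known for silencing E-cadherin during the epithelial-mesenchymal transition. Epithelial sheets that move as a group keep their junctions and switch on wound-type genes, among them the stress keratins 6 and 16, cornified envelope proteins and growth factors of the EGF family. A positive difference here can mean that a gene went up more in the knockdown or went down more in control, and a negative one the reverse. The levels in all 4 groups are therefore given with it for the genes described in most detail.

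Levels are TPM, a share of the library's transcripts scaled for gene length, and values are listed in the order of library 1, 2 and 3 (1, 3 and 4 for control at 36 h). A pseudocount of 1 was added before taking log2, so differences of weakly expressed genes come out too small, and TPM gives no read depth. A gene was tested with limma if 3 or more libraries held 1 TPM or more of it, and a gene was called at a Benjamini-Hochberg adjusted p under 0.05. In bulk RNA, fewer cells expressing a gene and less RNA per cell cannot be told apart.

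Snai1 (ENSMUSG00000042821) was checked first. Its control libraries stood at 1.34, 2.51 and 1.69 TPM at 0 h and 2.77, 2.69 and 3.92 TPM at 36 h. The knockdown libraries stood at 0.58, 0.79 and 0.48 TPM at 0 h and 0.58, 0.44 and 0.200 TPM at 36 h. Every knockdown library lay below every control library of the same time. The same held for 31.1% of all 14227 genes at 0 h and 22.3% at 36 h, so this alone does not set Snai1 apart. Its difference of changes was -0.75 (SE 0.321, limma adjusted p = 0.595) with 12 libraries and -0.67 (SE 0.318, adjusted p = 0.681) without knockdown 0 h library 2. Neither passed. Self-repression by Snail1 is a textbook case, and the Snai1 promoter is shown with a match to the E-box in capitals. Binding to it was not measured here. The match begins 126 bases before the RefSeq start. The window is the 250 bases before that start on GRCm38.p6, chr2:167537945-167538194, plus strand.
Snai1: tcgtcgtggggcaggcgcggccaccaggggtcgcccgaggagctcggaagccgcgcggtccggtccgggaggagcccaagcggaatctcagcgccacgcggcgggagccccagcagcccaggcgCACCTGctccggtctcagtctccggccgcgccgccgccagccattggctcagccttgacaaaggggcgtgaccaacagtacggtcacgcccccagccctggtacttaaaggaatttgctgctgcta

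Knockdown 0 h library 2 stood apart: 14.0% of its TPM came from mitochondrially encoded genes, against 1.45% to 6.15% in the other 11 libraries, and 12.9% from ribosomal protein genes, against 4.02% to 6.06%. Knockdown 0 h library 3 had 27715 genes above 0, against 20932 to 23427 in the others. Control 36 h library 4 is titled "mix" without further explanation. Over the 4921 genes averaging 30 TPM or more, its level lay between those of libraries 1 and 3 for 64.2%, and for 91.5% of the 10% of genes at which those 2 were furthest apart. For the other 11 libraries the first share was 5.89% to 54.3% and the second 11.8% to 75.4%. If library 4 is a pool, control at 36 h holds 2 independent samples, and the p-values overstate the replication. Some epithelial identity markers were abundant in every library, with Krt14 at 2206 to 20984 TPM and Epcam at 214 to 1161 TPM. Other such markers were low, among them Cldn7 at 1.28 to 7.65 TPM and Ehf at 2.52 to 14.84 TPM. Krt19, a further one of them, stayed at or under 0.42 TPM. The list of 9 fibroblast markers summed to 4.78 to 24.4 TPM, of which Pdgfra (1.16 to 11.1 TPM) and Col1a1 (1.4 to 10.3 TPM) were the most abundant, while Lum, Dpt and Thy1 were at or under 0.63 TPM. The immune cell marker list summed to 3.95 to 16.9 TPM, mostly Cd68 (2.11 to 14.7 TPM), a lysosomal protein gene that was lower at 36 h, with the defining markers Ptprc and Adgre1 at or under 0.17 TPM.

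With all 12 libraries, 14426 genes were tested and none was called, 0% higher and 0% lower, with a smallest adjusted p of 0.127. At an unadjusted p under 0.05 there were 766 genes. At an unadjusted p under 0.01 there were 106 with a positive difference, 0.735% of the genes tested, and 30 with a negative one, 0.208%. The median difference of all genes was 0.34, and 72.0% were positive. With median-of-ratios scaling, which sets the typical gene of each library to the same level, that median was 0.01, so positive values below are to be read against a shift of about this size. The median standard error was 0.442.

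Without knockdown 0 h library 2, 9 of 14227 genes were called higher, 0.0633%, and 1 lower, 0.00703%. At an unadjusted p under 0.01 there were 230 with a positive difference, 1.62%, and 59 with a negative one, 0.415%, and 110 genes were below 0.01 in both fits. The median of all genes was 0.09, 60.4% were positive, and the median standard error was 0.293. Called higher were the wound keratins Krt6a and Krt16, the skin secreted protein gene Dmkn, the protease inhibitor Stfa3, the transcriptional regulator Id2, the growth factor carrier Fgfbp1, the mitotic genes Cdc20 and Aurka and the carboxylesterase Ces1f. The gene called lower was Hsd11b1, which regenerates active glucocorticoid. All 10 had the same sign with 12 libraries. Among genes at p under 0.01 the knockdown moved more than control over the 36 h in 172 of the 230 positive ones and 26 of the 59 negative ones, beside 54.6% of all genes. With 12 libraries it did so in 82 of the 106 positive and 15 of the 30 negative ones, beside 73.1% of all genes, so the positive share was then near that of all genes.

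**Figure D1:**
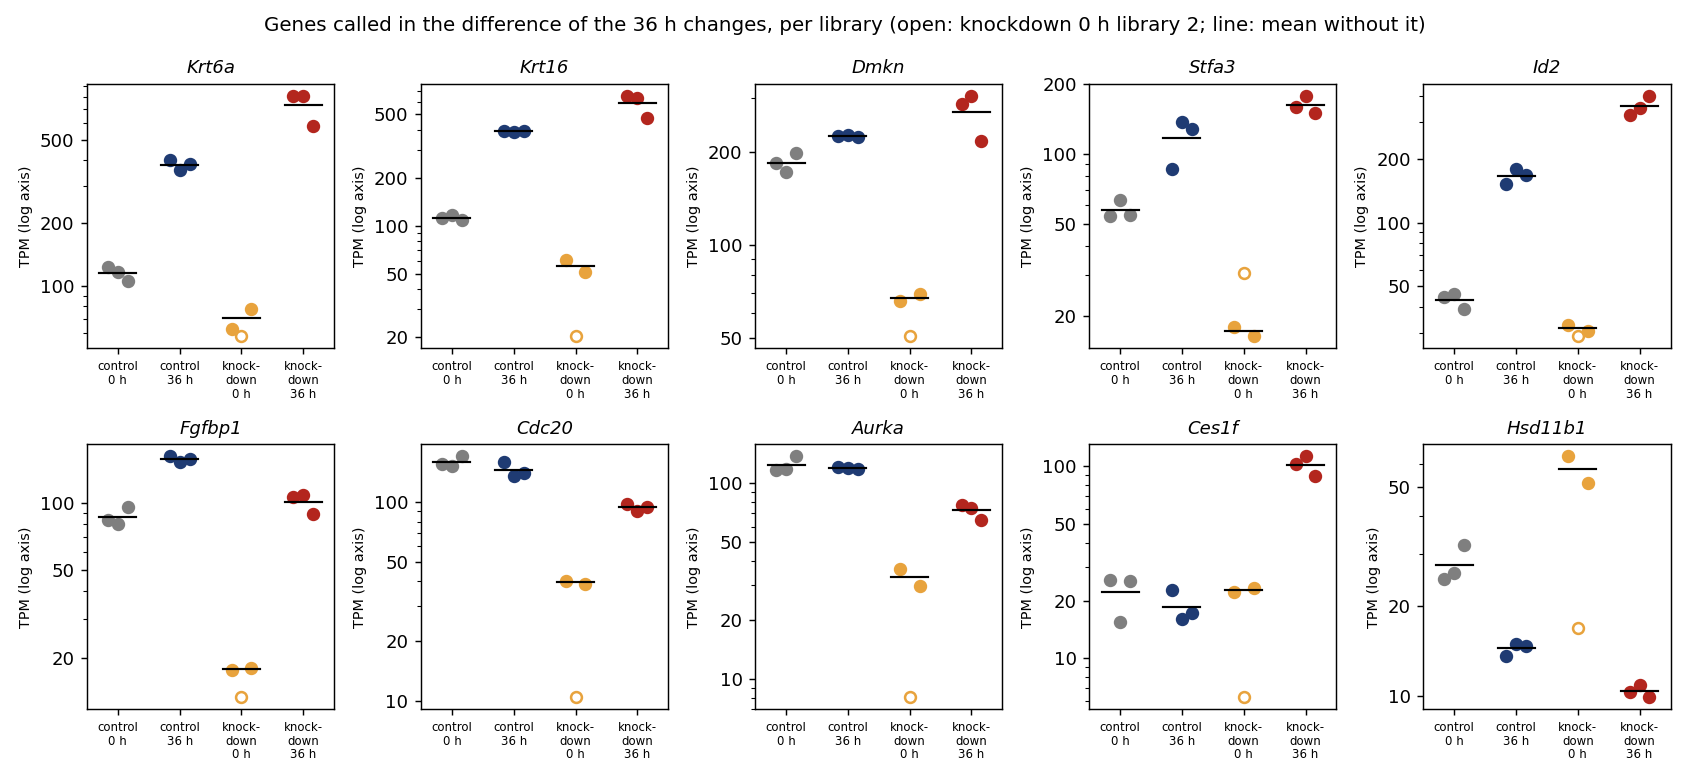
TPM on a log axis in each library for the 10 genes called without knockdown 0 h library 2, in 4 groups of 3. Lines mark group means without that library, which is drawn open. For Id2, Krt6a, Krt16 and Stfa3 the knockdown stands below control at 0 h and above it at 36 h.

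The difference between knockdown and control was mostly larger at 0 h than at 36 h. Without knockdown 0 h library 2, the 2 kinds of cells lay nearer to each other at 36 h for 175 of the 230 positive genes and 43 of the 59 negative ones, beside 61.0% of all genes tested. With 12 libraries they did so for 78 of the 106 positive and 24 of the 30 negative genes, beside 71.8% of all genes, so the positive share was again near that of all genes. Without that library the median difference of all genes at 0 h, knockdown minus control, was -0.17. Of the 230 positive genes, 207 were lower in the knockdown than in control at 0 h. The negative median means that most of all genes tested were lower there as well. A positive difference also subtracts the 0 h gap, which favours this sign. These counts share the 0 h libraries with the difference itself and are given as a description. Across the 14227 genes the control change and the knockdown change had a Pearson correlation of 0.29, which was 0.10 over the 14426 genes with all 12 libraries. They come from separate libraries, and genes are not independent replicates.

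**Figure D2:**
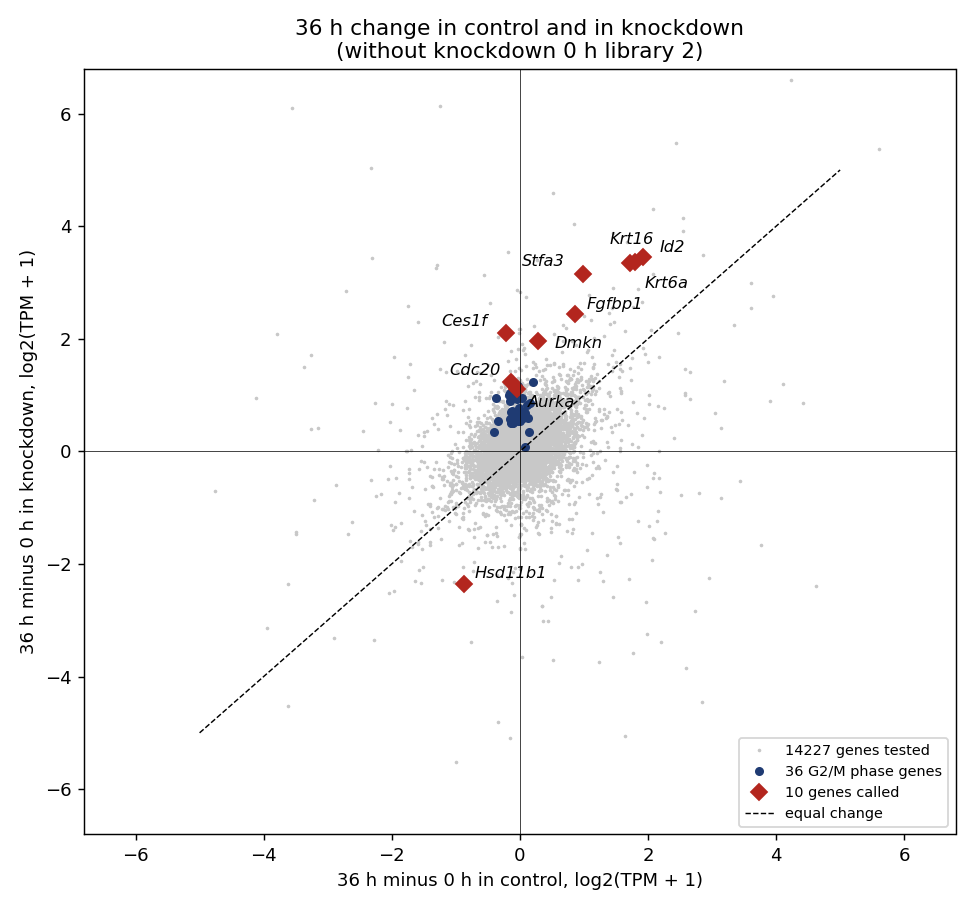
Each point is 1 of 14227 genes, with its 36 h change in control on the x axis and in the knockdown on the y axis, both in log2(TPM + 1), without knockdown 0 h library 2. The dashed line marks equal change; 9 called genes lie above it, Hsd11b1 lies below it, and the 36 G2/M phase genes lie above it near a control change of 0.

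The wound keratins Krt6a and Krt16 stood higher at 36 h than at 0 h in both kinds of cells, and by more in the knockdown. Krt6a (ENSMUSG00000058354), a keratin of wounded and hyperproliferative epithelium, stood in control at 123, 116 and 106 TPM at 0 h and 399.6, 359 and 382 TPM at 36 h. In the knockdown it stood at 62.7, 57.6 and 78.2 TPM and 809, 810.4 and 579 TPM. The knockdown libraries were all below control at 0 h and all above it at 36 h. The difference of changes was 1.64 (SE 0.209, limma adjusted p = 0.026) without knockdown 0 h library 2 and 1.73 (SE 0.27, adjusted p = 0.127) with it. Krt16 (ENSMUSG00000053797), its filament partner, stood at 111, 117 and 108 TPM in control at 0 h and 393, 388 and 395 TPM at 36 h. The knockdown had 60.5, 20.2 and 51.4 TPM and 654, 634 and 477 TPM, again below control first and above it later. Its difference was 1.57 (SE 0.178, limma adjusted p = 0.0115) and, with all libraries, 2.04 (adjusted p = 0.516). The stress keratins Krt6b and Krt17 did not pass. Without library 2 they had 1.04 and 0.50 (limma adjusted p = 0.206 and 0.677), and with it 1.18 and 1.15. In both, knockdown lay below control at 0 h and overlapped it at 36 h. Krt17 was nearly level in control, with a 36 h change of 0.11.

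Dmkn (ENSMUSG00000060962, dermokine, a protein secreted by stratified epithelium) differed mainly at 0 h. Control stood at 184, 172 and 198 TPM at 0 h and 225, 227 and 223 TPM at 36 h. Knockdown stood at 65.8, 50.5 and 69.1 TPM and 286, 304 and 218 TPM. The groups did not overlap at 0 h and overlapped at 36 h. Its difference was 1.68 (SE 0.176, limma adjusted p = 0.00833) without library 2 and 1.82 (adjusted p = 0.127) with it. The stefin A genes encode small inhibitors of cathepsins and are close copies of each other, so the level of any 1 of them is uncertain. Stfa3 (ENSMUSG00000054905) stood at 54, 63.6 and 54.3 TPM and then 86.3, 137 and 128 TPM in control. It stood at 18, 30.8 and 16.4 TPM and then 159, 178 and 149 TPM in the knockdown, with no overlap at either time. Its difference was 2.16 (SE 0.243, limma adjusted p = 0.0115), and 1.9 with all libraries (adjusted p = 0.305).

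Further members of this group were close to the threshold without passing it. Stfa2 stood at 1.46, 1.3 and 2.01 TPM in control at 0 h and 6.7, 11 and 12.9 TPM at 36 h, and at 1.14, 0.49 and 1.64 TPM and 42.6, 54 and 42.6 TPM in the knockdown. It had the largest value of the family, 2.23 (SE 0.347, limma adjusted p = 0.0732), with knockdown and control overlapping at 0 h only. Csta1, another stefin, had 1.58 (adjusted p = 0.0808), and 0.83 with knockdown 0 h library 2, where it stood at 36 TPM against 5.69 and 8.33 TPM in the other libraries of its group. Sprr1b, a cornified envelope precursor, stood at 38.2, 36.9 and 33 TPM and 54.3, 68.2 and 58.8 TPM in control and at 9.77, 7.99 and 6.32 TPM and 38.7, 41.4 and 38.4 TPM in the knockdown. It stayed below control at both times, unlike Krt6a and Krt16, with a difference of 1.46 (adjusted p = 0.0691). Over the 19 tested genes of stress keratins and the cornified envelope, 15 were positive, beside 60.4% of all genes. Of these 19, 8 had p under 0.01 and 4 were called (Krt6a, Krt16, Dmkn and Stfa3), all positive, beside 1.62% and 0.0633% of all genes. The median of the 19 was 0.50 (0.41 with scaling), beside 0.09 for all genes. With 12 libraries it was 0.83 (0.44 with scaling), with 6 positive at p under 0.01, beside 0.735% of all genes. The 11 tested epithelial identity markers had a median of 0.23 without library 2, with 9 positive, and 0.65 with it, with all 11 positive (0.14 and 0.24 with scaling). None of them was at p under 0.01 in either fit.

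Id2 (ENSMUSG00000020644) belongs to the Id proteins, which bind basic helix-loop-helix factors and keep them off DNA, and it is a target of BMP signalling. It stood in control at 44.3, 46.2 and 39 TPM at 0 h and at 152, 179 and 169 TPM at 36 h. In knockdown cells the values were 32.6, 29 and 30.7 TPM and 323, 351 and 400.2 TPM. The mean was 3.86-fold higher at 36 h in control and 11.6-fold higher in the knockdown, and knockdown libraries lay below control at 0 h and above it at 36 h without overlap. The difference was 1.53 (SE 0.16, limma adjusted p = 0.00833), and 1.57 with all 12 libraries (SE 0.24, adjusted p = 0.127), so knockdown 0 h library 2 changed its error more than its size. Id1, a related member, stood at 21.8, 25.9 and 24 TPM and 182, 179 and 178 TPM in control and at 27.8, 21.3 and 28.2 TPM and 352, 334 and 288 TPM in the knockdown. It was above control at 36 h without overlap, but its difference of 0.62 (SE 0.144, adjusted p = 0.237) did not pass in limma. Id3 and Id4 had -0.24 and 0.20. Smad1, which carries BMP signals to the nucleus, had 0.57 (adjusted p = 0.473). Of the 15 tested BMP pathway and Id genes, 10 were positive, beside 60.4% of all genes. Of these 10, 3 had p under 0.01 and 1 was called, beside 1.62% and 0.0633% of all genes. The median of the 15 was 0.17 (0.09 with scaling) without library 2 and 0.32 with it (-0.05 with scaling).

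Fgfbp1 (ENSMUSG00000048373), which releases fibroblast growth factors from the matrix, stood at 83.3, 80.1 and 95.3 TPM in control at 0 h and 162, 154 and 157 TPM at 36 h. The knockdown stood at 17.7, 13.3 and 18 TPM and 106, 108 and 89.2 TPM, below control at both times. The gap narrowed, with a difference of 1.57 (SE 0.15, limma adjusted p = 0.00712), and 1.7 with 12 libraries (SE 0.259, adjusted p = 0.127). The list of EGF family ligands and receptors also holds Errfi1, an intracellular inhibitor of the EGF receptor (0.51, and 0.79 with 12 libraries). All 11 tested genes of this list were positive in both fits, beside 60.4% and 72.0% of all genes. With median-of-ratios scaling, or with quantile normalization without library 2, 10 were positive and Erbb3 was negative. The median of the 11 was 0.51 without library 2 (0.42 with scaling) and 0.71 with it (0.39 with scaling), and none was called. Areg (amphiregulin), an EGF receptor ligand of the mammary gland, stood at 20.2, 26.3 and 20.8 TPM and 19.5, 21.1 and 20.9 TPM in control. In the knockdown it stood at 12.6, 8.8 and 8.32 TPM and 18.7, 21.3 and 29.8 TPM, below control at 0 h and overlapping it at 36 h. Its difference was 1.2 (SE 0.295, limma adjusted p = 0.288). Nrg1, a ligand of ERBB3 and ERBB4, had 0.85 (adjusted p = 0.539), and Ereg (epiregulin) 0.79 (adjusted p = 0.694). Wif1, a secreted Wnt inhibitor, had 1.85 (adjusted p = 0.133), with 2.53, 2.58 and 4.03 TPM and 10.3, 19.6 and 13.1 TPM in the knockdown against 9.81, 7.06 and 8.63 TPM and 7.74, 8.88 and 8.08 TPM in control.

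Most genes of mitosis shared 1 pattern. Control stood nearly level over the 36 h, and the knockdown began far below it and closed part of the gap. Cdc20 (ENSMUSG00000006398), which activates the anaphase-promoting complex, stood at 156, 153 and 170.3 TPM and 159.7, 136 and 139.8 TPM in control. The knockdown stood at 40.1, 10.5 and 38.9 TPM at 0 h and 98, 90.5 and 94.3 TPM at 36 h. Every knockdown library was below every control library at both times. The difference was 1.37 (SE 0.129, limma adjusted p = 0.00712) without library 2, and 1.98 (SE 0.557, adjusted p = 0.595) with it. Aurka (ENSMUSG00000027496), a spindle pole kinase, stood at 116, 117 and 137 TPM and 121, 119.8 and 117 TPM in control and at 36.3, 8.06 and 29.9 TPM and 77.5, 75 and 64.9 TPM in the knockdown. Its difference was 1.16 (SE 0.161, limma adjusted p = 0.0417), and 1.79 (SE 0.585, adjusted p = 0.595) with library 2. In both genes library 2 was the lowest knockdown library at 0 h, at 10.5 TPM for Cdc20 and 8.06 TPM for Aurka, and its inclusion made both the difference and its error larger.

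The list of 36 G2/M phase genes showed this pattern with 1 clear exception. All 36 were positive in both fits, and 35 with median-of-ratios scaling or quantile normalization, where Mki67 was negative (Mad2l1 for 12 libraries with quantile normalization). All 36 were below control at 0 h without overlap, as were 31.1% of all 14227 genes, and at 36 h 32 of the 36 still were, beside 22.3% of all genes. Mki67, the proliferation antigen, did not close its gap, with 12.9, 10.9 and 7.99 TPM and 13.2, 7.91 and 12.7 TPM in control and 2.3, 1.18 and 1.97 TPM and 3.14, 1.96 and 1.99 TPM in the knockdown (0.01, SE 0.363). The control changes ran from -0.41 to 0.21 and the knockdown changes from 0.09 to 1.23. Without knockdown 0 h library 2 the median difference was 0.77 (0.69 with scaling). There 20 had p under 0.01 and 2 were called, beside 1.62% and 0.0633% of all genes. With 12 libraries the median was 1.15 (0.78 with scaling). Then 8 had p under 0.01, beside 0.735% of all genes, and none of the 36 was called. Their summed level was 3727 to 3887 TPM in control at 0 h and 3565 to 3870 TPM in control at 36 h. It was 1246 and 1192 TPM in knockdown 0 h libraries 1 and 3, 536 TPM in library 2, and 1920 to 2111 TPM in the knockdown at 36 h, so the list had not reached the control level by then. Plk1, the polo-like mitotic kinase, had 1.19 (SE 0.189, limma adjusted p = 0.0791). Kif2c, a kinesin that takes microtubules apart, had 1.31 (adjusted p = 0.0811), and Cdca8, of the chromosomal passenger complex, 1.15 (adjusted p = 0.0808). The centromere histone Cenpa had 0.78 (adjusted p = 0.0691). Birc5 (survivin) had 0.56 (adjusted p = 0.39). None of these 5 passed.

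**Figure D3:**
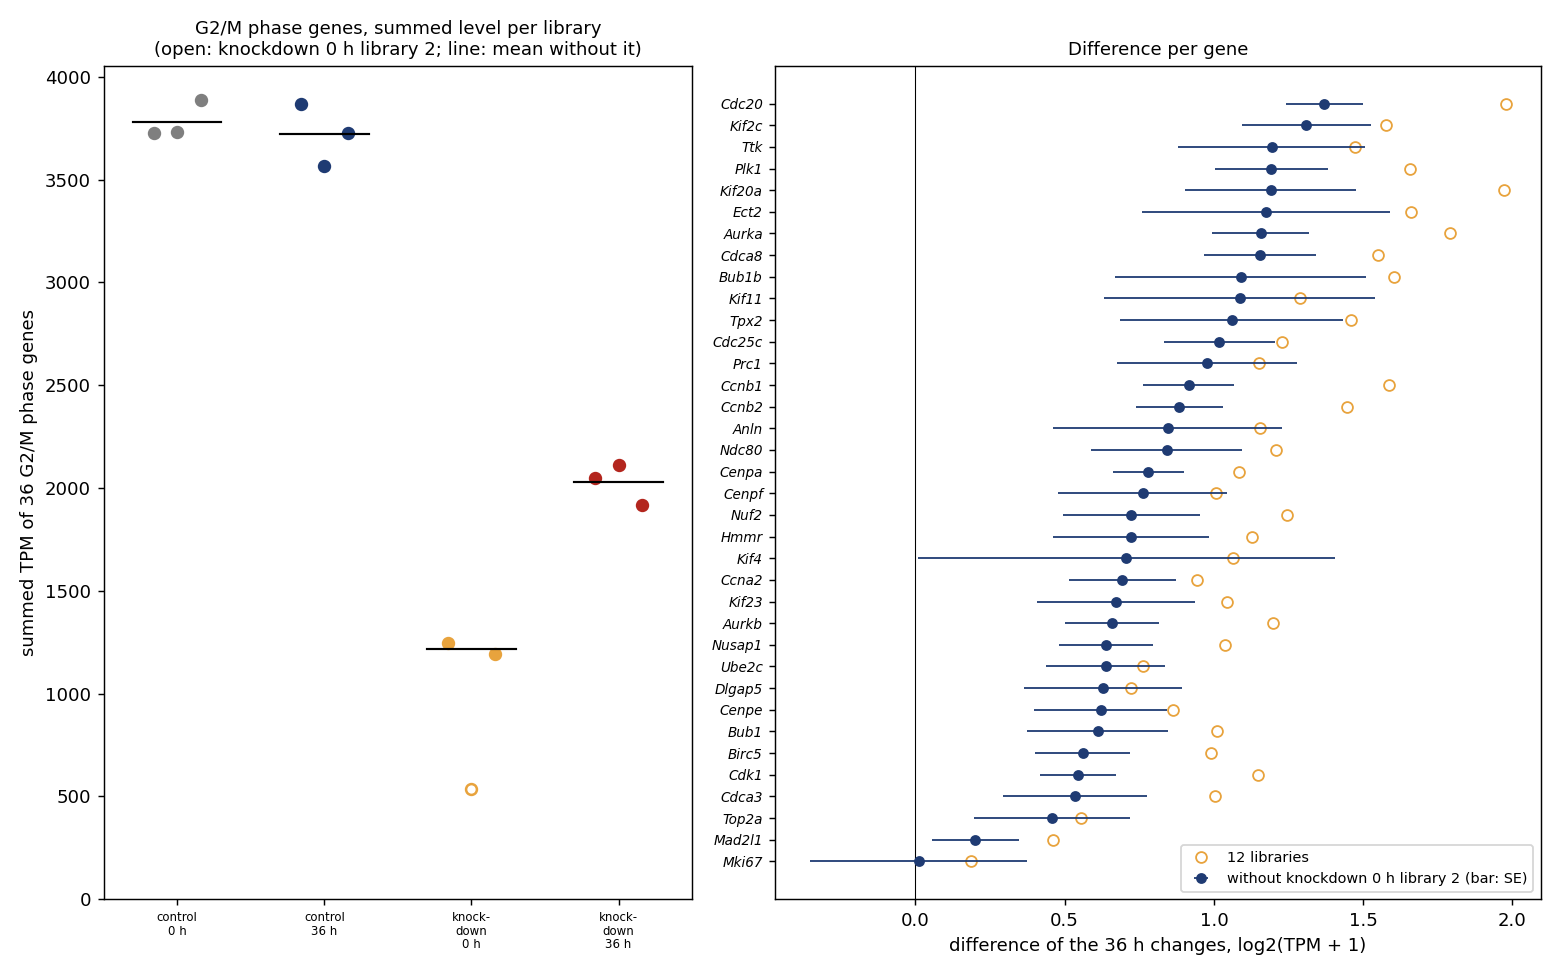
Left, summed TPM of 36 G2/M phase genes in each library, with knockdown 0 h library 2 drawn open and lines at group means without it. Right, the difference of the 36 h changes for each gene in log2(TPM + 1), open for 12 libraries and filled (bar: SE) without that library; every point is above 0.

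Of 39 S phase genes, which serve DNA replication, 29 were positive without knockdown 0 h library 2, beside 60.4% of all genes. Their median was 0.29 (0.20 with scaling), with 3 positive at p under 0.01, beside 1.62% of all genes, and none called. With all 12 libraries 37 were positive, beside 72.0% of all genes. The median was then 0.78 (0.38 with scaling), so that library set much of the size. At p under 0.01 there was then 1 positive gene, beside 0.735% of all genes. Mcm5, of the replicative helicase, stood at 101, 90.4 and 105 TPM and 158, 103 and 122 TPM in control and at 24, 11.5 and 30.5 TPM and 80.3, 66 and 65.6 TPM in the knockdown. Its difference was 1.00 (SE 0.242, limma adjusted p = 0.267). Rfc4, of the clamp loader, had 0.79 (adjusted p = 0.206). Among 18 tested G1 cyclins, CDKs and inhibitors the median was 0.08, and 0.21 with library 2 (-0.16 with scaling), and cyclin D1 (Ccnd1) had 0.8 (adjusted p = 0.479).

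The promoter of Cdc20 is shown because mitotic promoters share a short element near the start, the cell cycle genes homology region, which recruits the complexes that restrict them to G2 and M. It was searched as TTTGAA or TTCGAA on either strand, a choice made after the values were seen. In capitals is the match, which begins 18 bases before the start in the 250 bases before it (chr4:118437344-118437593, minus strand, RefSeq on GRCm38.p6).
Cdc20: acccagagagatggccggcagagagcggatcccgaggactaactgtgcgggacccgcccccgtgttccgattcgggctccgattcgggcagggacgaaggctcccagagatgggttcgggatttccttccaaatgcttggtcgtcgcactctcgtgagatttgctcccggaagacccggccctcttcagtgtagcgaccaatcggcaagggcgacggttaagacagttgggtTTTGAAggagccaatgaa

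In windows from 250 bases before to 50 bases after the start, 26 of 32 promoters of the G2/M phase genes (30 of the 36 matched by symbol) held this element, 81.2%, against 14.3% of the 12477 promoters of tested genes. Among promoters of genes at p under 0.01, 26.8% of 198 with a positive difference and 8.33% of 36 with a negative one held it. The 230 positive genes include 20 of the G2/M list, so the 26.8% is not separate from the 81.2%. The Snail E-box, CAGGTG or CACCTG on either strand, was in 17.9% of all 12477 promoters. It was in 19.7% of the positive and 33.3% (12) of the negative ones at p under 0.01. It was in none of the 9 promoters matched for 7 of the 10 called genes, which says only that these letters are not in these windows. A match is a description of the sequence and not a site, and no test was made. Stfa2, with the largest value of the stefins, is shown as an example with an E-box, in capitals, that begins 203 bases before the start (chr16:36408364-36408613, minus strand, same build).
Stfa2: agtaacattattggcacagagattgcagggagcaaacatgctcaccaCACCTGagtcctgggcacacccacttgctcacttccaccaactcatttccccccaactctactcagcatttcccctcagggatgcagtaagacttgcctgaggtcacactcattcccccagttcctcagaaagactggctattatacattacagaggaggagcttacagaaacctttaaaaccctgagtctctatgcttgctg

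Ces1f (ENSMUSG00000031725), a carboxylesterase that hydrolyses lipid and drug esters, was the called gene with the largest difference. It has close relatives in a gene cluster, so its level is uncertain. Control stood at 25.6, 15.4 and 25.1 TPM at 0 h and 22.6, 16 and 17.2 TPM at 36 h. In the knockdown 22.1, 6.29 and 23.3 TPM at 0 h were followed by 103, 112 and 88.5 TPM at 36 h. Knockdown and control overlapped at 0 h and were far apart at 36 h, which sets it off from the other 8 genes called higher. Its difference was 2.32 (SE 0.299, limma adjusted p = 0.026), and 2.88 (adjusted p = 0.358) with 12 libraries. Aldh3a1, an aldehyde dehydrogenase, was already above control at 0 h. It stood at 298, 263 and 227 TPM and 433, 358 and 406 TPM in control and at 823, 328 and 782 TPM and 2534, 2058 and 2217 TPM in the knockdown. With 0.89 (SE 0.178, limma adjusted p = 0.156) it did not pass. Cyp1a1, a target of the aryl hydrocarbon receptor, had 1.31 (adjusted p = 0.378), and the glutathione transferase Gsta4 0.72 (adjusted p = 0.206). Gsta5, of the same family, had -1.3 (adjusted p = 0.202), with 10.5, 3.71 and 8.74 TPM and 3.58, 3.08 and 3.31 TPM in the knockdown against at most 1.12 TPM in control. Of 20 tested detoxifying enzymes, 13 were positive, near the 60.4% of all genes. At p under 0.01 there were 4 positive and 1 negative, beside 1.62% and 0.415% of all genes. The median of the 20 was 0.23 (0.18 with scaling), beside 0.09 for all genes. With library 2 it was 0.50 (0.28 with scaling), beside 0.34.

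Hsd11b1 (ENSMUSG00000016194), the reductase that makes active glucocorticoid from its inert form, was lower at 36 h in both kinds of cells, and more so in the knockdown. Control stood at 24.7, 25.9 and 32.1 TPM at 0 h and 13.7, 15 and 14.8 TPM at 36 h. The knockdown stood at 63.4, 17 and 51.7 TPM at 0 h and 10.4, 11 and 9.95 TPM at 36 h. Knockdown libraries 1 and 3 were above control at 0 h and library 2 was below it, while at 36 h all 3 were below control. The difference was -1.48 (SE 0.197, limma adjusted p = 0.0323) without library 2 and -0.91 (SE 0.539, adjusted p = 0.595) with it. Among the 14 tested glucocorticoid-responsive genes 6 were positive, beside 60.4% of all genes, and the median was -0.15. Tsc22d3, a typical target of the glucocorticoid receptor, had 0.59 (adjusted p = 0.356).

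Other negative differences fell into 2 kinds, and none of them passed. In the first, control stood higher at 36 h and the knockdown did not follow. Lipk, a lipase of the stratified epidermis, stood at 1.09, 1.48 and 1.05 TPM and 5.88, 4.82 and 5.13 TPM in control and at 0.15, 0 and 0.84 TPM and 0.19, 0.13 and 0.33 TPM in the knockdown (-1.77, SE 0.31, limma adjusted p = 0.105). Fabp5, an epidermal fatty acid carrier, stood at 934, 982 and 772 TPM and 1386, 1729 and 1632 TPM in control. Its knockdown level was above control throughout, at 1971, 2195 and 2044 TPM and 2000.2, 1921 and 2355 TPM, and its difference was -0.77 (adjusted p = 0.258). Cryab, a small heat shock protein, had -0.78 (adjusted p = 0.202), and Mia, a secreted protein, -0.56 (adjusted p = 0.293). Ccn1, a secreted matrix protein and YAP target, had -1.02 (adjusted p = 0.356), and -0.37 with library 2, where it stood at 1.01 TPM. Hsd17b7, of sterol synthesis, had -0.95 (adjusted p = 0.267). In the second kind, the knockdown began above control and then stood lower. Ccl5, a chemokine, stood at 16.6, 29.3 and 24.4 TPM and 11.2, 2.07 and 5.95 TPM in the knockdown and at 2.37, 4.12 and 5.46 TPM and 1.81, 7.4 and 4.58 TPM in control (-1.81, SE 0.782, adjusted p = 0.668). S100g, a calcium buffer, had -1.27 (adjusted p = 0.522), and Camta1, a transcription regulator, -0.66 (adjusted p = 0.264).

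A positive difference also came from genes that stood lower at 36 h in control. At p under 0.01 without library 2, control moved more than the knockdown in 58 of the 230 positive genes. The knockdown moved more in the other 172, beside 54.6% of all genes. Control moving more was thus less common among them than among all genes. H1f2, a replication-dependent linker histone, stood at 71, 81.1 and 59.8 TPM in control at 0 h and 14.6, 13.9 and 15.9 TPM at 36 h. In the knockdown it was low from the start, with 19.1, 11.9 and 20.5 TPM and 13.5, 12 and 8.71 TPM, and its difference was 1.41 (SE 0.249, limma adjusted p = 0.105). Fos, the immediate early AP-1 factor, stood at 58.9, 56.9 and 72.9 TPM and 20.9, 20.3 and 19.7 TPM in control and at 15.3, 6.09 and 13.3 TPM and 7.96, 9.99 and 17.8 TPM in the knockdown. Knockdown lay below control at both times, with a difference of 1.26 (adjusted p = 0.378). The metalloproteases Mmp12 and Mmp3 had 1.37 and 1.46 (adjusted p = 0.522 and 0.601). Mmp12 stood at 76.3, 59.4 and 98.9 TPM and 12.7, 10.4 and 11.8 TPM in control and at 6.66, 1.61 and 14.5 TPM and 2.65, 2.9 and 5.75 TPM in the knockdown. Csf3, the neutrophil growth factor, had 1.24 (adjusted p = 0.345). Spp1 (osteopontin), an abundant secreted phosphoprotein, stood at 23136, 22043 and 27972 TPM and 14633, 13831 and 13412 TPM in control. In the knockdown it stood at 14235, 3086 and 13254 TPM and 12465, 13055 and 12558 TPM, with a difference of 0.68 (SE 0.149, adjusted p = 0.206). None of these passed.

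Genes of the epithelial-mesenchymal transition, the process Snail1 is best known for, showed no difference of changes that passed. Of 11 tested genes of the EMT transcription factor list 6 were positive in both fits, beside 60.4% and 72.0% of all genes. The median was 0.07 without library 2 and 0.19 with it. With scaling both medians were negative, at -0.02 and -0.09. The list also holds Snai1 itself and the epithelial factors Ovol1, Ovol2 and Grhl2, which act against the transition. Without library 2 these 3 epithelial factors had 0.21, 0.26 and 0.40. The count and median therefore do not describe the drivers of the transition alone. Snai3, a relative of Snai1, had the lowest p of the 11, at -1.73 (SE 0.339, limma adjusted p = 0.141). It stood at 0.43, 0.35 and 0.68 TPM and 0.47, 1.17 and 0.82 TPM in control and at 8.15, 1.88 and 4.64 TPM and 1.72, 1.63 and 1.53 TPM in the knockdown, above control at both times, and its difference was -1.29 with library 2. Cdh1 (E-cadherin) stood at 308, 288 and 292 TPM and 374, 162 and 311 TPM in control and at 135, 71 and 334 TPM and 249, 270.0 and 169 TPM in the knockdown. The libraries of a group were spread so widely that its difference of 0.23 had an SE of 0.54 (adjusted p = 0.936), and groups overlapped at both times. With library 2 it was 0.75, and with any 1 of the 12 libraries left out 0.23 to 1.34, the highest without knockdown 0 h library 3. Vim (vimentin) stood at 37.2, 29 and 24.6 TPM and 51.5, 56.6 and 58.5 TPM in control and at 16.9, 10.5 and 13.7 TPM and 23.9, 23.9 and 29.6 TPM in the knockdown. Its 36 h change was 0.87 in control and 0.72 in the knockdown, with a difference of -0.15 (SE 0.24, adjusted p = 0.91) and 0.01 with library 2. Fn1 (fibronectin) had -0.11 (SE 0.526), Cdh2 (N-cadherin) 0.2 (SE 0.549) and Snai2 0.07 (SE 0.142). With library 2 they were -0.12, 0.37 and 0.62, and Snai2 stood there at 26.9 TPM, against 91.9 and 80.1 TPM in the other knockdown libraries at 0 h. The 12 tested mesenchymal effectors had a median of -0.13 without library 2 and 0.17 with it, and with scaling it was -0.22 and -0.21. The basal keratin gene Krt14 had 0.38 (adjusted p = 0.66) and the luminal one Krt8 0.28 (adjusted p = 0.794). A p above the threshold does not show that these genes changed alike.

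Across the 46 gene lists, G2/M phase genes had the highest median without knockdown 0 h library 2 (0.77), followed by matrix metalloproteases and TIMPs (0.53), EGF family genes (0.51) and stress keratins and cornified envelope genes (0.50). Ribosomal protein genes had the lowest, at -0.33 over 56 genes, of which 1 was positive and none had p under 0.01. Knockdown 0 h library 2, rich in these RNAs, set the size of several medians. With it the median of mitochondrially encoded genes was -1.08 instead of -0.04, and that of ribosomal proteins was -0.68. It also moved chaperones from 0.10 to 0.63 and cholesterol synthesis genes from -0.01 to 0.46, beside 0.09 to 0.34 for all genes. With scaling these 2 lists moved from 0.00 to 0.23 and from -0.09 to 0.07. Calls in lists without the library were 4 among stress keratins and the cornified envelope, 2 among G2/M phase genes and 1 each among BMP and Id genes, detoxifying enzymes and glucocorticoid-responsive genes, where it was the negative one. Of all genes, 0.0633% were called higher and 0.00703% lower.

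**Figure D4:**
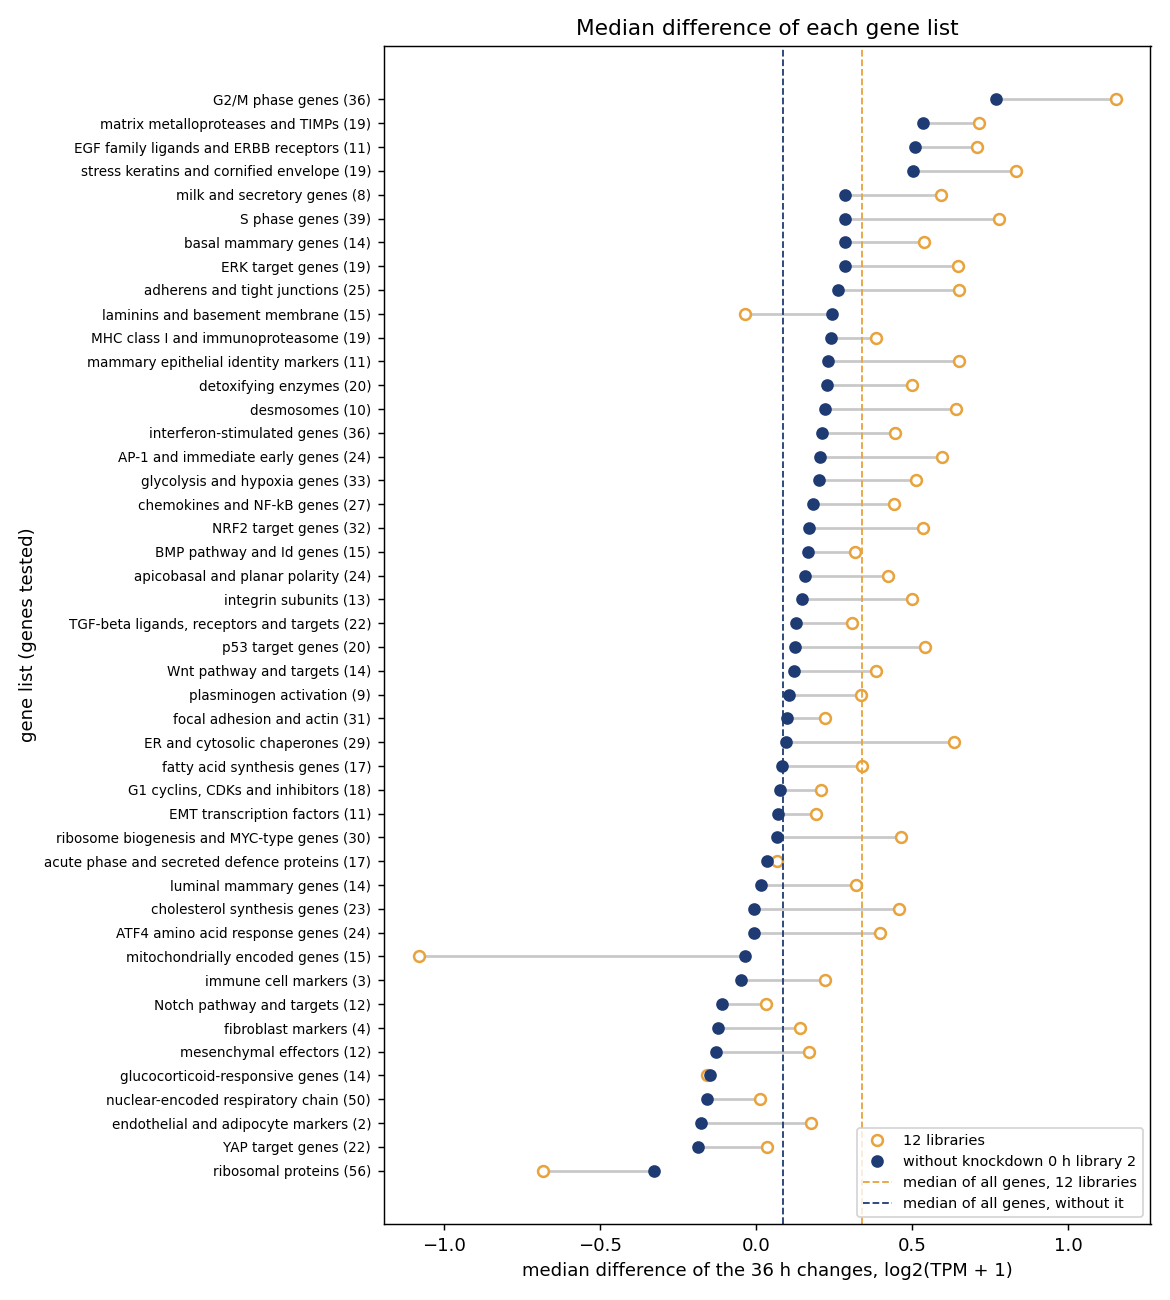
Median difference of the 36 h changes in log2(TPM + 1) for each of 46 gene lists (number of genes tested with 12 libraries in brackets), open with 12 libraries and filled without knockdown 0 h library 2. Dashed lines mark the medians of all genes, 0.34 and 0.09; the G2/M list is highest in both, and mitochondrially encoded genes move from -1.08 to -0.04.

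The calls rested on few libraries. Leaving out knockdown 0 h library 3 as well, so that library 1 alone stood for that group and was assumed to vary like the others, left none of the 10 calls, although the limma adjusted p of the 10 was then only 0.0575 to 0.12. Cdc20, Fgfbp1, Dmkn and Id2 kept theirs without any 1 of the other 10 libraries. Krt16 lost it also without control 0 h library 1 (adjusted p = 0.0566), and Stfa3 without knockdown 36 h library 1 (0.0514). Ces1f lost it without 8 of the 11 libraries (0.0576 to 0.109), keeping it without control 0 h library 2, control 36 h library 1 or knockdown 36 h library 3. Krt6a lost it without 10 of the 11 (0.0576 to 0.111), with knockdown 36 h library 3 the exception. Aurka lost it without 9 (0.0757 to 0.154), keeping it without knockdown 0 h library 1 or knockdown 36 h library 3. Hsd11b1 kept it only without control 0 h library 3 (0.0597 to 0.129 for the rest). With median-of-ratios scaling the 11 libraries gave 5 calls, all higher, namely Cdc20, Fgfbp1, Dmkn, Ces1f and Krt6a. None of the alternatives run turned the sign of any of the 10.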

How the data were processed

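RNA was measured in 12 HC11 libraries, 4 groups of 3 taken from the sample titles. Per the submitters' processing notes the tools were HISAT2 2.2.1, HTSeq, cutadapt 1.9.1, DESeq2 and FastQC and the build GRCm39, with no role given, and the program that made the values is not given in the sources used here. The deposited table holds the authors' TPM per gene and library for 57180 genes. It also holds their group means, which were not used: the control 36 h mean covers libraries 1 and 3 only, and a further column repeats library 4. TPM keeps no depth, so count models were not used, no counting error is given, and low values are less certain.

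Genes with at least 1 TPM in 3 or more libraries were fitted on log2(TPM + 1) with 1 mean per group in limma 3.58.1 (trended variance) under R 4.3.3, after checking the script on simulated data. The contrast was the 36 h change in the knockdown minus that in control, two-sided, with Benjamini-Hochberg adjustment over all genes tested, and was repeated without knockdown 0 h library 2, where 14227 genes passed the filter and the group had 2 libraries. Lists (46) were described by counts and medians, without set tests. The genes named were Snai1, then per direction and fit the 15 largest differences among called genes with a group mean of at least 5 TPM, filled by lowest p and without predicted genes, pseudogenes and genes under 300 bases, then up to 4 per list by p, and Krt8, Krt14, Snai2, Vim, Fn1, Cdh1, Cdh2 and Zeb1. The last was below the filter. Snai3, Id3, Id4, Mki67, Mad2l1 and Erbb3, below or outside this rule, were named after their values were seen. The stress keratins Krt6b and Krt17 were also added after their values were seen. The comparison, members and lists were chosen with earlier results of these data known. Promoters are RefSeq windows on GRCm38.p6, matched by symbol, and no coordinates were taken from the deposited build. Alternatives were the pseudocount, filter, scaling, variance model, array weights, replicate block, removal of mitochondrially encoded genes, and leaving out each library. Those repeated without knockdown 0 h library 2 were mostly added after seeing the data.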

Additional observations from a re-analysis of the deposited data

Results flagged for a closer look

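The difference between the 36 h change in the knockdown and that in control passed limma's test for 10 genes without knockdown 0 h library 2, and these are the values a reader may want to look at again. On the log2(TPM + 1) scale they were 1.37 for Cdc20, 1.16 for Aurka, 1.53 for Id2, 1.57 for Fgfbp1, 1.57 for Krt16, 1.64 for Krt6a, 1.68 for Dmkn, 2.16 for Stfa3, 2.32 for Ces1f and -1.48 for Hsd11b1. Knockdown 0 h libraries 1 and 3 stand for the 0 h knockdown in all 10.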

How the results depend on the processing

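With 12 libraries, 0 genes were higher and 0 lower. Array weights, which estimate how far each library deviates and weight it accordingly, gave 73 higher and 17 lower, including all 10 genes of the fit without knockdown 0 h library 2. They gave control 36 h library 4 a weight of 32.4 and that library 0.0269 (0.307 to 2.57 for the rest), and the estimate stopped before converging. With control 36 h library 4 left out, a check added after seeing the weights, they gave 5 higher and 3 lower. No filter, median-of-ratios scaling, quantile normalization and the replicate block each gave 1 lower. Leaving out 1 library gave 0 to 9 higher and 0 to 1 lower. Without knockdown 0 h library 2, scaling gave 5 higher, and leaving out control 36 h library 4 too gave 7 higher and 1 lower, with 6 of the 10 among them.

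Of the 9 higher and 1 lower without that library, all 10 were among the calls with a pseudocount of 0.1, a filter of 5 TPM, a robust variance or no mitochondrially encoded genes. No filter gave 29 lower, median-of-ratios scaling 5 and 0, quantile normalization 4 and 0, no variance trend 2 lower and array weights 18 and 2. Leaving out 1 more library gave 0 to 13 higher and 0 to 10 lower, 0 of both without knockdown 0 h library 3 and 10 lower without library 1. The replicate block gave 1 higher and 2 lower, and 1 higher and 1 lower with scaling, 0 of them shared. Same-numbered libraries of different groups did not deviate together more than others (correlations of -0.287 to 0.132 in 15 pairs, against -0.238 to 0.255 in 39 others). With 3 libraries per group this cannot show whether same-numbered libraries shared a culture or batch. The labels do not say. The block also leaves less to estimate the error from, so no conclusion is drawn from the calls lost under it.

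Some named values near 0 changed sign. Vim, 0.01 with 12 libraries, was -0.37 with scaling, -0.44 with quantile normalization, -0.041 without mitochondrially encoded genes, -0.24 with array weights, -0.088 with those and without control 36 h library 4, -0.37 with the block and scaling, -0.24 without knockdown 0 h library 2 and with scaling, and -0.12 without that library and control 36 h library 4. It ranged from -0.15 to 0.16 with 1 library left out. Fn1, -0.12, ranged from -0.55 to 0.16, and was 0.051 without those 2 libraries and 0.31 with array weights and no control 36 h library 4. Ccn1, -0.37, ranged from -1.02 to 0.10. Snai2, 0.62, was -0.023 without knockdown 0 h library 2 and with scaling. Mki67, 0.19, was -0.078 with scaling, -0.055 with scaling and no knockdown 0 h library 2, and -0.037 with array weights, and ranged from -0.031 to 0.36 with 1 library left out. The cause was not tested. TPM gives no depth, so the error of low values is unknown.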
